A study of Mus musculus with 12 samples.

Results

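The glutathione S-transferases (GST), UDP-glucuronosyltransferases (UGT) and cytosolic sulfotransferases (SULT) were examined in mouse liver RNA-seq. Members were the genes whose symbols begin with Gst and a class letter, with Ugt1, Ugt2 or Ugt3, or with Sult. Of 65 such genes in the table, the 49 with at least 10 reads in at least 3 of the 9 libraries were kept, among 21936 genes in all. They comprised 21 of 23 Gst genes, 16 of 21 Ugt genes and 12 of 21 Sult genes. The 16 genes below that minimum were Gsto2, Gstt4, Ugt1a2, Ugt1a8, Ugt1a10, Ugt2a1, Ugt2a2, Sult1c1, Sult2a3, Sult2a4, Sult2a6, Sult2b1, Sult3a2, Sult4a1, Sult6b1 and Sult6b2.

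All animals were male C57BL/6 mice (substrain J in the methods of the study), 6 weeks old on arrival, and all were injected intraperitoneally 2 times a week, over 8 weeks, with 1 mL/kg of carbon tetrachloride (CCl4), a toxin that is activated in hepatocytes. The livers of the fibrosis group (LFG) were taken when that course ended. The other groups then received tail vein injections 2 times a week over 4 further weeks, which held 200 µL of saline (PBS) in the regression group (REG) and 250 µg of exosomes in 200 µL in the hADMSCs-Exo group, exosomes being the small vesicles that human adipose mesenchymal stem cells release. Each group had 3 libraries, and the cell-treated hADMSCs group was not analysed here. The table heads the columns of the treated livers MSC_E, which were read as hADMSCs-Exo from the letter E and the titles of the samples. The table does not spell this out, so every hADMSCs-Exo value rests on that reading. Against LFG, the greater age of the mice, the time since CCl4 and the injections cannot be told apart.

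Drugs, toxins, bilirubin, steroids and bile acids are made soluble in hepatocytes by phase II conjugation, in which a transferase joins the compound to a carrier. GSTs attach glutathione, UGTs attach a sugar, mostly glucuronic acid, inside the endoplasmic reticulum, and SULTs move sulfate from the donor PAPS in the cytosol. Many of these genes are under the control of NRF2, CAR, PXR and the aryl hydrocarbon receptor, and in mice several differ between the sexes through the pattern of growth hormone secretion, Sult2a1, Sult2a2 and Sult3a1 being higher in females and Gstp1 in males.

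Levels are given as normalised FPKM, the deposited FPKM (reads per length of the gene and depth) divided by the scaling factor of each library (TMM), so that genes can be compared per length. Total counts lay between 13837445 and 19840917 per library, and the members took 0.753% to 1.17% of them. LFG 3 stood apart before any comparison of the families. Its log2 values over all genes correlated with LFG 1 and LFG 2 at Pearson's r of 0.833 and 0.874, against 0.896 to 0.940 with the libraries of the other groups and 0.959 to 0.981 for every other pair within a group. Results that involve LFG are therefore given with and without LFG 3. Since LFG 3 was more like the other groups than like its own, leaving it out favours differences against LFG. Hepatocyte markers (10 of 10 measured) summed to 41328, 67744 and 106144 normalised FPKM in LFG 1, 2 and 3, 87422 to 92671 in REG and 67269 to 71926 in hADMSCs-Exo. In bulk RNA, fewer cells of a type and less RNA per cell cannot be told apart.

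Some members share sequence with relatives, which makes their counts uncertain. Of all stretches of 100 bases in a member's exons, over 50% also occurred in another gene for 7 members, and under 5% for 29. The 7 were Gsta1 at 81.8%, mostly shared with Gm3776, and the 6 Ugt1a genes at 52.8% to 95.7%, which are transcribed from separate first exons onto a common 3′ part. Gstp1 and Gstp2 shared 38.4% and 42.2% of theirs, largely with each other, and Sult2a2 shared 34.6%. Exons of Gstz1, Gstm5, Gstcd, Sult1a1 and the 6 Ugt1a genes overlap a gene on the opposite strand, and the use of strand in counting is not given in the sources used here.

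The most abundant transcript of the families per length was Gstm1, a mu-class GST, with a mean of 1081 normalised FPKM over the 9 libraries. It read 624, 1679 and 1213 in LFG, 864, 1131 and 856 in REG and 1433, 898 and 1029 in hADMSCs-Exo, and the groups overlapped. Next came Gstp1 (mean 535), Gsta3 (439), Ugt2b5 (352), Ugt2b36 (298) and Sult1a1 (278) on the same scale. The ranges of these last 5 overlapped one another, and those of Gstp1, Gsta3 and Ugt2b5 overlapped that of Gstm1 too. In LFG 3 Gstp1 was above Gstm1. At the other end, Gstcd, Ugt2b37 and Ugt1a7c had means of 0.771, 0.373 and 0.157 normalised FPKM.

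Summed over members, GST levels were 3153 ± 1188 normalised FPKM in LFG, 2867 ± 397 in REG and 2993 ± 387 in hADMSCs-Exo (SD, n = 3 each). UGT levels summed to 1214 ± 754, 1149 ± 202 and 1276 ± 34.7, and SULT levels to 523 ± 192, 525 ± 52.9 and 534 ± 88.6, in the same order. LFG 1, LFG 2 and LFG 3 held 1798, 3648 and 4013 for GST, 567, 1033 and 2042 for UGT and 363, 469 and 736 for SULT. With all 3, the mean of each family differed between groups by less than the spread between the LFG libraries. Without LFG 3 the LFG means were 2723 ± 1308 for GST, 800 ± 329 for UGT and 416 ± 75.2 for SULT (SD, n = 2), each below the means of both recovery groups. The libraries still overlapped. LFG 2 lay above REG 1 for UGT (1033 against 932), and for SULT above REG 3 and hADMSCs-Exo 1 (469 against 464 and 434). LFG 1 held the lowest of the 9 values for 25 of 49 members and LFG 3 the highest for 16. Over all 12843 genes with the same minimum of reads, LFG 1 was lowest for 19.6% and LFG 3 highest for 25.6%.

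**Figure D1:**
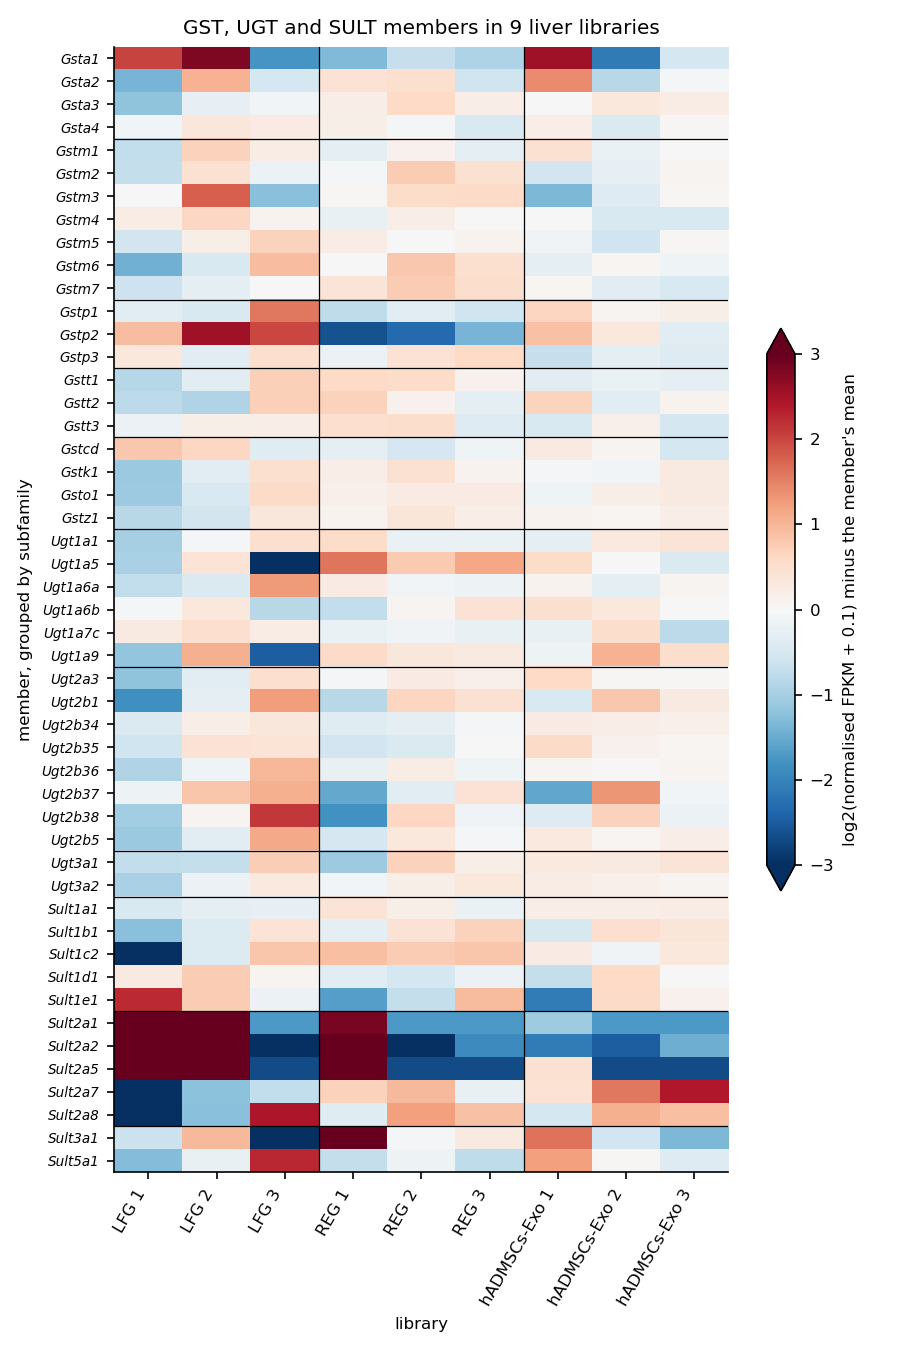
Heat map of the 49 members (rows, grouped by subfamily) in the 9 libraries (columns). Colour gives log2(normalised FPKM + 0.1) minus the mean of that member over the libraries, from blue (lower) to red (higher), cut at 3 in either direction. Columns LFG 1 and LFG 3 differ from each other in most rows, and Sult2a1, Sult2a2 and Sult2a5 are dark red in LFG 1, LFG 2 and REG 1.

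The comparison of hADMSCs-Exo with REG asks what the exosomes added to recovery in saline. Gstp2, of the pi class, had the largest fold change and the smallest p of the 44 members tested in these 6 libraries. The gene, which lies at chromosome 19, 4040285 to 4046023 (GRCm38, ENSMUSG00000038155), read 0.387, 0.493 and 1.05 normalised FPKM in REG and 5.37, 3.63 and 2.32 in hADMSCs-Exo. These levels rested on 7, 10 and 22 reads and 101, 67 and 41 reads. Gstp2 thus passed the filter on low counts through the treated libraries, where it is high, and its values are given as a description. All 3 treated libraries were above all 3 saline libraries, with a log2 fold change of 2.53 ± 0.48 (SE). The adjusted p was 0.358 by edgeR's quasi-likelihood test, so the difference did not pass the threshold over all genes. Gstp1 (chromosome 19, 4035407 to 4037985), the main pi-class enzyme of mouse liver, read 277, 367 and 309 in REG and 733, 498 and 528 in hADMSCs-Exo, again without overlap, at a log2 fold change of 0.88 ± 0.19 and an adjusted p of 0.358. Gstp3 (chromosome 19, 4057477 to 4059569) lay on the other side, at 14.3, 22.0 and 24.7 in REG and 9.91, 13.1 and 12.3 in hADMSCs-Exo, with a log2 fold change of -0.78 ± 0.22. So the neighbouring genes of 1 cluster did not share a direction.

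**Figure D2:**
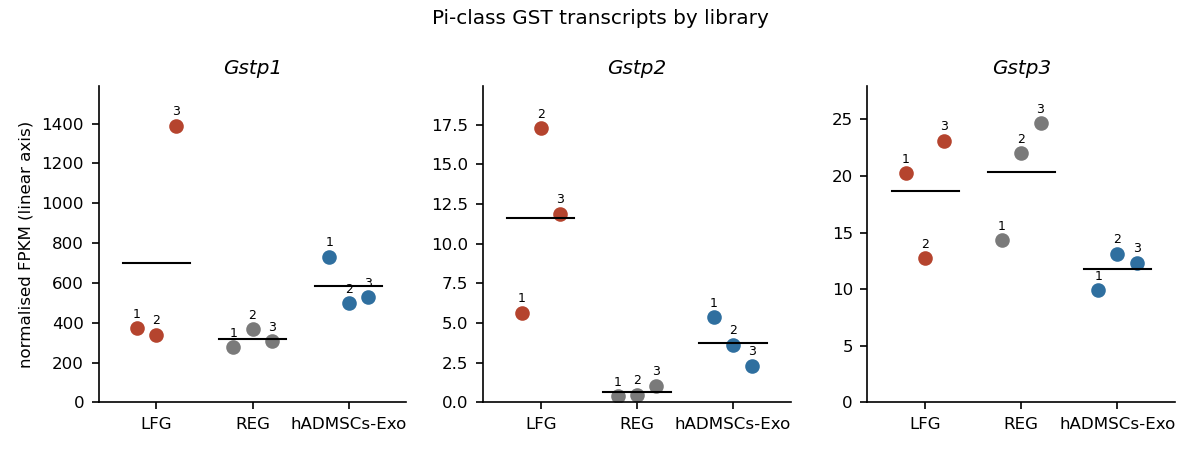
Normalised FPKM (linear axes that start at 0 and differ between panels) of Gstp1, Gstp2 and Gstp3 in each library, numbered by replicate. Bars mark group means. For Gstp1 and Gstp2 the 3 hADMSCs-Exo points sit above the 3 REG points, for Gstp3 below them, and LFG 3 has the highest Gstp1 value of all.

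Since Gstp1 and Gstp2 share exon sequence, some reads of either gene may be counted for the other. Gstp2 stood at 0.140%, 0.134% and 0.340% of the Gstp1 level in REG, at 0.733%, 0.728% and 0.440% in hADMSCs-Exo and at 1.52%, 5.09% and 0.856% in LFG. The share was not constant, and in LFG 3, where Gstp1 was highest, it was the lowest of the LFG libraries. The 250 bases before the RefSeq start of each gene are shown because these neighbours differed in direction. These starts differ from those of the gene positions given above. The Gstp2 window lies inside the gene as counted, and those of Gstp1 and Gstp3 overlap their genes in part. The sequences are from RefSeq (GRCm38.p6), written 5′ to 3′ on the strand of the gene, with the AP-1 motif TGAGTCA in capitals:

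Gstp1 (chr19:4037913-4038162, - strand): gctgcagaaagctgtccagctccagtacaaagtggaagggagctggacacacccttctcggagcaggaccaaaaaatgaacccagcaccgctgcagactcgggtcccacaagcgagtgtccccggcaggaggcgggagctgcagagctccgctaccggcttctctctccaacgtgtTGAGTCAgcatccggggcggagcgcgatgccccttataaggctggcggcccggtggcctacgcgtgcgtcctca

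Gstp2 (chr19:4042222-4042471, - strand): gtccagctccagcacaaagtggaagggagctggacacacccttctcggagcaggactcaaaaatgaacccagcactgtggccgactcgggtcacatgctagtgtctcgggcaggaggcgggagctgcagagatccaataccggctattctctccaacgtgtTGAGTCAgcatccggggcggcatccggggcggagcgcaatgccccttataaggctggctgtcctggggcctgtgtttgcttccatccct

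Gstp3 (chr19:4059448-4059697, - strand): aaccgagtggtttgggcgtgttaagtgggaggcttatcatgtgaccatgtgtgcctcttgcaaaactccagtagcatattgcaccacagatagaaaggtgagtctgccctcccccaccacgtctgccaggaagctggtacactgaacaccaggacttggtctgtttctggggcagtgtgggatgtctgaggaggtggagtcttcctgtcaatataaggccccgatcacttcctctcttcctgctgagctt

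Gstp1 and Gstp2 were identical at 78.5% of aligned positions here, against 50.7% for Gstp1 and Gstp3 and 51.9% for Gstp2 and Gstp3. The motif began 74 bases before the start of Gstp1 and 89 bases before that of Gstp2, and its letters were not in the window of Gstp3 on either strand. Over 32851 RefSeq promoters of this length, 4.46% held TGAGTCA on either strand, and among the 42 of 49 members that matched a promoter the others were Gstm5 and Ugt2b37. The antioxidant response element core TGACNNNGC, which can overlap the AP-1 letters of the other strand, stood in 10.2% of promoters and in those of Gsta3, Gstm5 and Gstm7. Both motifs were chosen after the values had been seen.

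No member passed the test between hADMSCs-Exo and REG, 0 of 44 tested, by adjusted p under 0.05 and a log2 fold change of at least 1 in either direction. Over all genes 0.00811% passed, a single gene of 12337. At an unadjusted p under 0.05, 13 members differed, against 10.0% of all genes. Of them 5 were higher in hADMSCs-Exo, where 5.34% of all genes were, and 8 lower, where 4.69% were. The groups did not overlap for 9 members, against 15.6% of all genes, with 4 higher (8.08% of all genes) and 5 lower (7.49%). The median log2 fold change was 0.025 over members and 0.0080 over all genes. DESeq2 called Gstp2 (adjusted p = 0.000557) and Ugt1a5 (0.0193), where it called 0.423% of all genes, and limma with voom called none of the members. The 5 members below the filter on low counts in these 6 libraries were Sult2a1, Sult2a2, Sult2a5, Ugt1a7c and Ugt2b37.

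Among mu-class GSTs, which act on epoxides and aromatic compounds, 6 of 7 were lower in hADMSCs-Exo than in REG. Of them 4 were so at an unadjusted p under 0.05, beside 4.69% of all genes, and none passed the adjusted threshold. Gstm7 read 53.1, 69.4 and 58.7 normalised FPKM in REG and 42.3, 32.1 and 29.6 in hADMSCs-Exo. The groups did not overlap, and the log2 fold change was -0.80 ± 0.17 (adjusted p = 0.358). For Gstm3 the values were 163, 236 and 237 and 63.3, 122 and 164, where REG 1 and hADMSCs-Exo 3 met at about the same level, with a log2 fold change of -0.86 ± 0.32 (adjusted p = 0.458). Gstm6 and Gstm2 had log2 fold changes of -0.57 ± 0.20 and -0.64 ± 0.23 with overlapping groups. The exception was the most abundant, Gstm1, at 0.24 ± 0.21. The 7 genes lie side by side on chromosome 3, from 107895821 to 108044894.

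Theta-class Gstt1, which acts on small halogenated compounds, read 225, 217 and 162 in REG and 121, 130.5 and 123 in hADMSCs-Exo. Each treated library was below each saline library, at a log2 fold change of -0.69 ± 0.16 and an adjusted p of 0.358. Among alpha-class genes, Gsta3 and Gsta4, the latter an enzyme for the lipid peroxidation product 4-hydroxynonenal, differed by -0.15 ± 0.17 and 0.044 ± 0.21 on the log2 scale. Gsta1 rested on 1 library, with 2.58, 4.08 and 3.44 in REG and 39.1, 1.45 and 4.61 in hADMSCs-Exo. Gm3776, with which it shares most of its sequence, showed the same library high at 6.03, against 0.345 and 1.44 in the others of its group. Gstz1, of tyrosine breakdown, Gsto1, a thioltransferase, and Gstk1, of mitochondria and peroxisomes, had log2 fold changes of -0.11 ± 0.14, -0.10 ± 0.14 and -0.20 ± 0.15.

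UGT transcripts lay closer together. Of 14 tested, 12 had a positive and 2 a negative log2 fold change, with a median of 0.14. Ugt2b34 read 76.4, 80.1 and 94.8 normalised FPKM in REG and 117, 114 and 109 in hADMSCs-Exo, without overlap, at a log2 fold change of 0.44 ± 0.14 (adjusted p = 0.409). Ugt2b35 read 32.4, 35.6 and 48.1 and 72.1, 53.3 and 50.5, likewise without overlap, at 0.60 ± 0.20 (adjusted p = 0.425). Both are steroid-type UGTs of the cluster on chromosome 5. Of the 2 in the other direction, Ugt1a5 had an unadjusted p under 0.05, with 44.0, 24.9 and 32.3 in REG, 20.9, 14.3 and 10.5 in hADMSCs-Exo and a log2 fold change of -1.15 ± 0.29 (adjusted p = 0.38). Since 63.1% of its stretches are shared with other Ugt1a genes, its counts depend on how such reads were assigned. Ugt1a1, the bilirubin-conjugating enzyme, differed by 0.056 ± 0.27, and the abundant Ugt2b5, Ugt2b36 and Ugt2a3 by 0.24 ± 0.20, 0.078 ± 0.15 and 0.13 ± 0.18 on the log2 scale.

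SULT transcripts showed no common direction, with 4 of 9 higher and 5 lower in hADMSCs-Exo. Sult1c2 read 4.04, 3.63 and 3.79 in REG and 2.50, 1.96 and 2.63 in hADMSCs-Exo, without overlap, and its log2 fold change was -0.70 ± 0.21 (adjusted p = 0.407). Sult5a1, an enzyme with few known substrates, read 1.24, 1.88 and 1.20 and 5.08, 2.15 and 1.57 with overlapping groups, at 1.03 ± 0.42, and at 0.37 without hADMSCs-Exo 1. Sult1a1, the main phenol sulfotransferase, was at 358, 307 and 236 in REG and 316, 312 and 319 in hADMSCs-Exo, a log2 difference of 0.069 ± 0.18. Sult2a7, a hydroxysteroid sulfotransferase, read 3.76, 4.60 and 1.95 and 3.15, 7.07 and 12.5, at a log2 fold change of 1.14 ± 0.50 (adjusted p = 0.498), and of 0.57 without hADMSCs-Exo 3. Sult3a1 differed by -1.66 ± 1.09 (adjusted p = 0.63), with REG 1 the highest library.

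**Figure D3:**
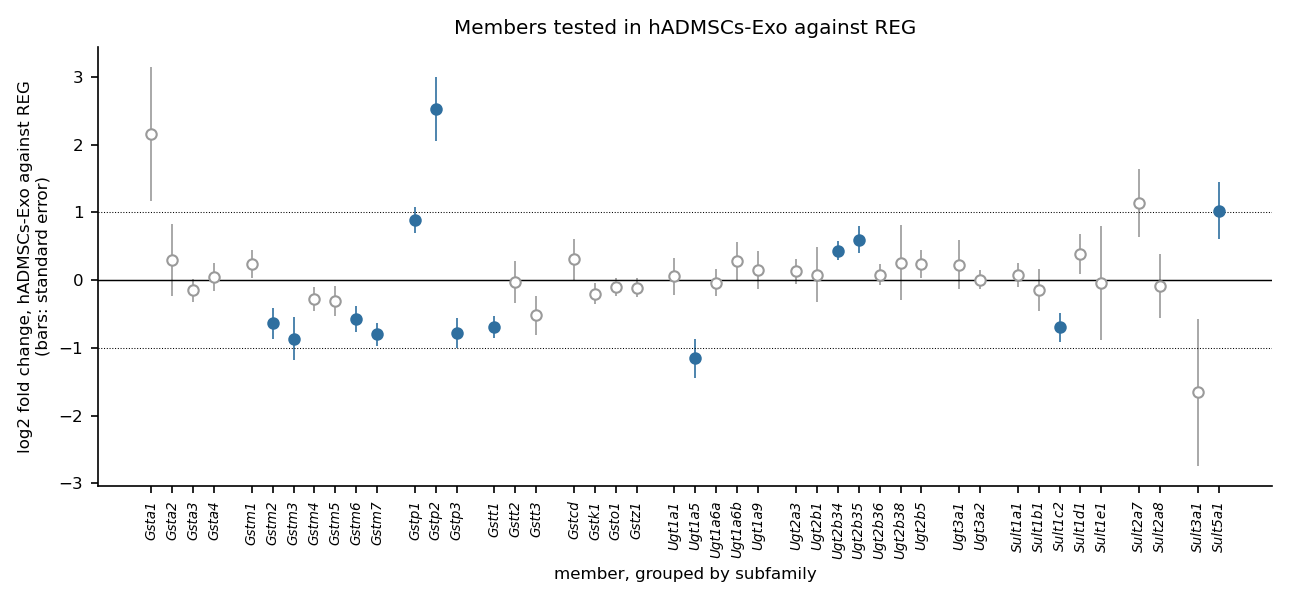
Log2 fold change of hADMSCs-Exo against REG for the 44 members tested, grouped by subfamily, with bars of 1 standard error. Filled points have an unadjusted p under 0.05, none passed after adjustment, and dotted lines mark log2 fold changes of 1 and -1. Gstp2 is the highest filled point at 2.53 and Ugt1a5 the lowest at -1.15.

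Cell markers were read in the same comparison. Hepatic stellate cell and myofibroblast markers (12 of 12 measured) summed to 50.4 to 97.9 normalised FPKM in REG and 24.1 to 62.9 in hADMSCs-Exo, and pericentral hepatocyte markers (12 of 12) to 3444 to 4029 and 4418 to 6619. The stellate sums overlapped, and no marker of any list was called. At an unadjusted p under 0.05, 7 of 11 tested stellate markers were lower, beside 4.69% of all genes, and 5 of 11 pericentral markers higher, beside 5.34%. The part of cell makeup in the values of the members was not tested.

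The comparison of REG with LFG covers 4 weeks of recovery in saline after CCl4. Gstp2 again had the largest fold change and the smallest p of the 49 members tested, with 5.64, 17.3 and 11.9 normalised FPKM in LFG against 0.387, 0.493 and 1.05 in REG. Every REG library was below every LFG library, at a log2 fold change of -4.14 ± 0.59 and an adjusted p of 0.243. Here Gstp2 passed the filter on low counts through the LFG libraries, where it is high, so these values are a description. Gstp1 did not follow it: the LFG values were 372, 339.6 and 1389, of which LFG 1 was just above the highest REG library, LFG 2 within the REG range and LFG 3 far above it, and the log2 fold change was -1.14 ± 0.58 with LFG 3 and -0.12 ± 0.22 without it. Gstp3 differed by 0.13 ± 0.31. Of 49 members tested none passed in either direction, and 0% of 12517 genes did.

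At an unadjusted p under 0.05, 6 members differed between REG and LFG, against 11.3% of all genes. In REG 3 of them were higher (Gstm7, Sult2a7 and Ugt1a5), beside 4.62% of all genes, and 3 lower (Gstp2, Gsta1 and Sult1d1), beside 6.70%. The groups did not overlap for 8 members, against 19.0%, with 5 higher (8.91% of all genes) and 3 lower (10.0%). The median was -0.0056 over members and -0.068 over all genes on the log2 scale. DESeq2 called Gstp2 (adjusted p = 6.22e-09) and Gsta1 (0.0381) among 1.38% of all genes, and limma with voom called no gene.

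Without LFG 3, 8 members were called between REG and LFG, beside 10.7% of 12948 genes. Of them 5 were higher in REG, beside 3.81% of all genes, and 3 lower, beside 6.94%. All 8 were GSTs. Gstt1 read 83.0, 118 and 247 in LFG and rose by 1.05 ± 0.25 on the log2 scale (adjusted p = 0.0328). Here LFG 1 and LFG 2 were below all REG libraries and LFG 3 above them. Gstt2, another theta-class gene, had the same arrangement for LFG 1 and LFG 2, with 12.8, 11.9 and 36.7 in LFG, 35.9, 24.4 and 18.0 in REG and a log2 fold change of 1.12 ± 0.29 (adjusted p = 0.0399). For Gsto1 the values were 18.3, 28.2 and 58.1 in LFG and 43.4, 46.6 and 46.2 in REG, with a log2 fold change of 1.01 ± 0.21 (adjusted p = 0.0248). Gstm6 had 17.1, 33.4 and 87.1 and 46.9, 81.0 and 64.5, at 1.39 ± 0.34 (adjusted p = 0.036). Each of these 4 had its highest LFG value in LFG 3, and with that library the log2 fold changes were 0.44, 0.36, 0.39 and 0.49.

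Gstm7 was the riser least tied to LFG 3. It read 26.5, 33.2 and 41.5 normalised FPKM in LFG, below all of the REG values given above. Its log2 fold change was 0.85 ± 0.23 with LFG 3 (adjusted p = 0.318) and 1.06 ± 0.19 without it (0.0181). The hADMSCs-Exo values of Gstm7 overlapped those of LFG, with a log2 fold change of 0.036 ± 0.23 against LFG.

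The 3 that fell without LFG 3 were Gsta1, Gstp2 and Gstcd. Gsta1, an alpha-class GST on chromosome 9 from 78230656 to 78242684, read 27.3, 46.5 and 1.87 in LFG and 2.58, 4.08 and 3.44 in REG. LFG 3 lay with REG, so that the log2 fold change of -3.40 ± 0.29 (adjusted p = 0.0104) became -2.89 ± 0.95 (0.388) with it. Gm3776 read 3.52, 6.33 and 0 in LFG and 1.13, 0.754 and 0.729 in REG, the pattern of Gsta1 at a lower level. Gstp2 fell too, with a log2 fold change of -4.08 ± 0.58 (adjusted p = 0.0145). It had 149 and 344 reads in LFG 1 and LFG 2 and 7, 10 and 22 in REG. It passed the filter on low counts through LFG, where it is high, so the call is given as a description. Gstcd, a broadly expressed gene with a GST-like domain, read 1.34, 1.18 and 0.546 in LFG and 0.582, 0.488 and 0.658 in REG, a log2 fold change of -1.09 ± 0.27 (adjusted p = 0.0367).

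A further 3 members passed the adjusted threshold without LFG 3 but not the limit on fold change. Gstz1 and Gstk1 were higher in REG by 0.96 ± 0.22 and 0.98 ± 0.26 on the log2 scale, and Sult1d1, which sulfates catecholamines, was lower, at -0.82 ± 0.21. Sult1d1 read 87.1, 122 and 76.3 in LFG and 58.3, 50.3 and 64.2 in REG, and the groups did not overlap with LFG 3 included. No UGT was called. Of 16, 11 had a positive log2 fold change, with a median of 0.55, and the nearest to the threshold was Ugt1a5 at 1.41 ± 0.42 (adjusted p = 0.0544). Its LFG values were 7.23, 19.1 and 1.58, and its log2 fold change was 1.88 with all libraries and 2.93 without LFG 2. At an unadjusted p under 0.05, 21 of 49 members differed without LFG 3, against 37.3% of all genes. Of these 16 were higher in REG, beside 18.2% of all genes, and 5 lower, beside 19.1%. Scaled by library totals alone, 13 were higher (5.31% of all genes) and 12 lower (36.6%), with a median log2 fold change of -0.064 over members and -0.425 over all genes. The groups did not overlap for 25 members, against 55.6% of all genes, with 17 higher (25.8%) and 8 lower (29.8%). The median log2 fold change was 0.34 over members and -0.0051 over all genes.

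**Figure D4:**
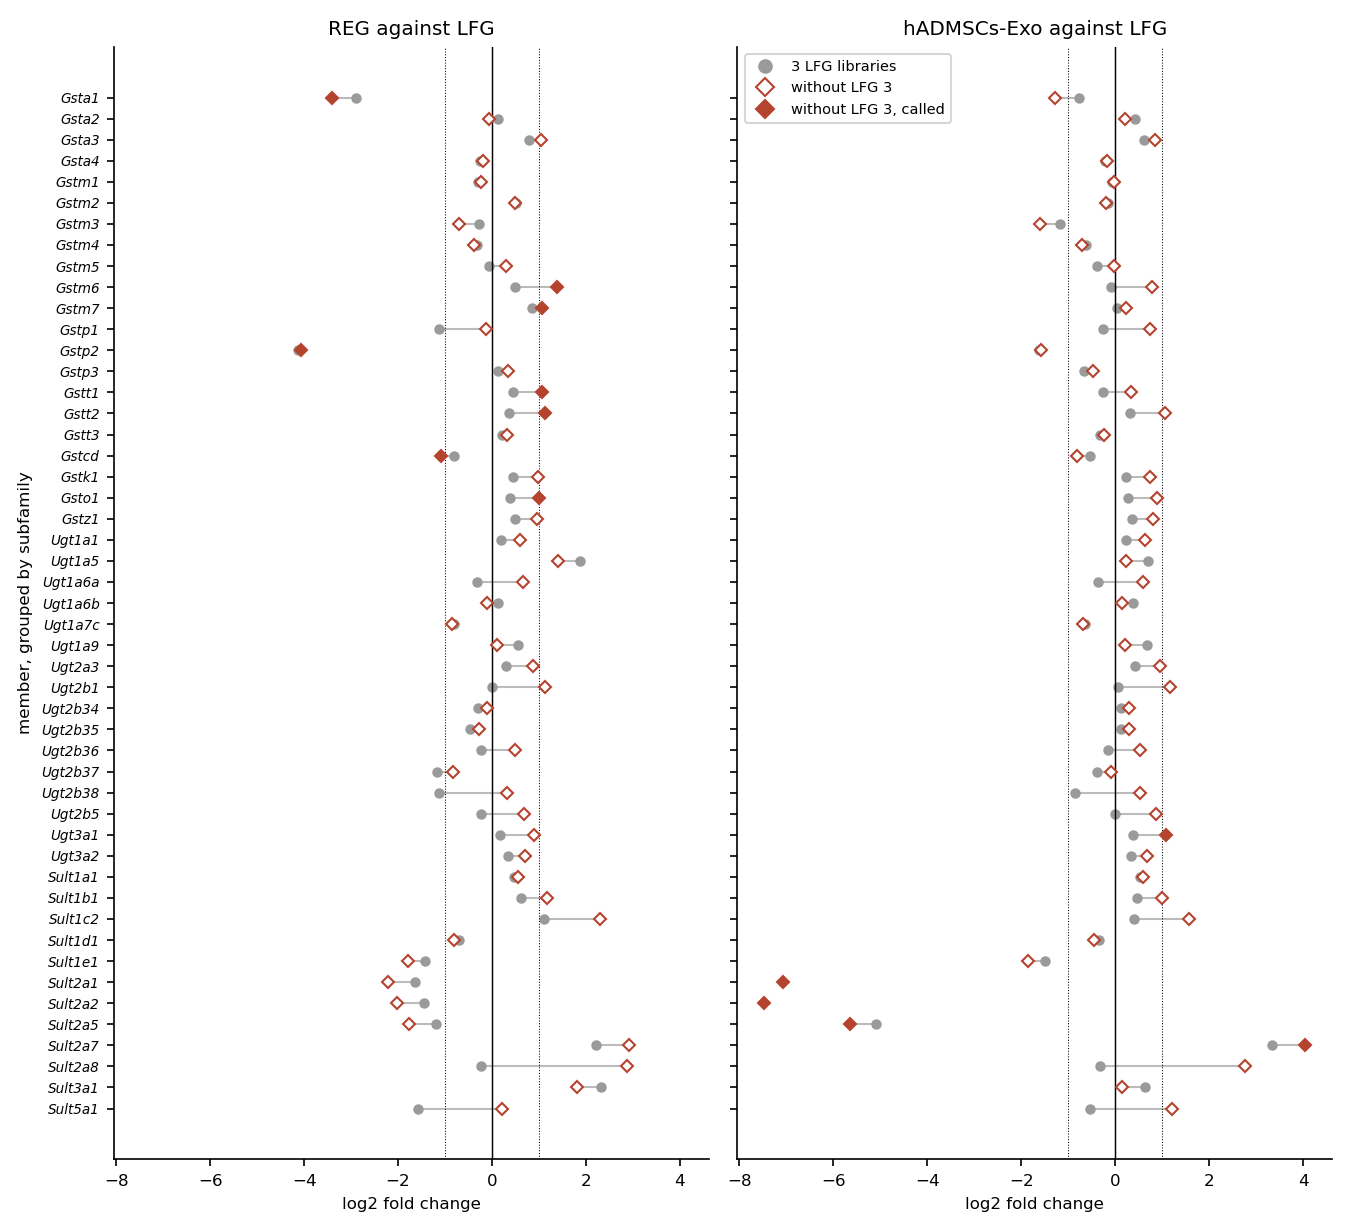
Log2 fold changes of the members against LFG, for REG (left) and hADMSCs-Exo (right) on the same axis. Grey circles use 3 LFG libraries and red diamonds leave out LFG 3, filled where the member was called (8 on the left, 5 on the right). Lines join both values of a member, and dotted lines mark 1 and -1. Members missing a circle did not pass the filter on low counts with LFG 3. The fitted values of Sult2a1 and Sult2a5 for hADMSCs-Exo rest on treated libraries that mostly held no reads and give no size.

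For hADMSCs-Exo against LFG, the smallest p among members was that of Sult2a7, a hydroxysteroid sulfotransferase at chromosome 7, 14465051 to 14494230. It read 0.0659, 0.918 and 1.33 normalised FPKM in LFG and 3.15, 7.07 and 12.5 in hADMSCs-Exo, from counts of 2, 21 and 19 and 68, 150 and 254. All treated libraries were above all LFG libraries, at a log2 fold change of 3.35 ± 0.96 (adjusted p = 0.805), and Sult2a7 rose by 4.04 ± 0.95 without LFG 3 (0.0489). Sult2a7 passed the filter on low counts through the treated libraries, where it is high, so that call is given as a description. REG values were 3.76, 4.60 and 1.95, above LFG as well. Sult1a1 read 199, 226 and 229.9 in LFG, below every hADMSCs-Exo library, with a log2 fold change of 0.53 ± 0.20 (adjusted p = 0.805). Gsta3, the chief alpha-class GST here, read 181, 351 and 396 against 419, 520.3 and 489 in hADMSCs-Exo and 478, 629.9 and 482 in REG. Its log2 fold changes of 0.62 ± 0.36 and 0.78 ± 0.36 against LFG did not pass (adjusted p = 0.825 and 0.47).

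Gstp2 and Gstm4 lay lower in hADMSCs-Exo than in LFG. Gstp2 had a log2 fold change of -1.62 ± 0.49 (adjusted p = 0.805), from the values given above, with hADMSCs-Exo below LFG and above REG in every library. Gstm4 read 31.4, 41.6 and 29.1 in LFG and 27.3, 19.6 and 19.6 in hADMSCs-Exo, at -0.63 ± 0.23 (adjusted p = 0.805). Gstm3 depended on LFG 2, at 161, 551 and 66.9 in LFG, with a log2 fold change of -1.17 ± 0.76 that turned to 0.016 without that library. It was -1.59 ± 0.55 without LFG 3 (adjusted p = 0.114) and, with the replicate block as well, -1.76 ± 0.29 (0.0442). That block fit has 1 residual degree of freedom among the samples and pairs libraries by number alone, so its adjusted p is weak ground for a difference.

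Of 47 members tested against LFG, none was called in either direction, beside 0% of 12489 genes. At an unadjusted p under 0.05, 6 differed, against 5.98% of all genes. Of them 2 were higher in hADMSCs-Exo (2.30% of all genes) and 4 lower (3.68%), among them Gstp3 at a log2 fold change of -0.67 ± 0.28. The groups did not overlap for 5 members, against 12.3% of all genes, with 3 higher (6.36%) and 2 lower (5.93%). The median was -0.071 over members and -0.059 over all genes. DESeq2 called Sult2a7 (adjusted p = 0.0345) among 0.355% of genes, and limma with voom called none. Without LFG 3, 5 of 49 were called, beside 5.97% of 12955 genes, with 2 higher (1.47% of all genes) and 3 lower (4.50%). The 3 lower were Sult2a1, Sult2a2 and Sult2a5, which passed the filter on low counts only through LFG 1 and LFG 2. Their difference was set by the filter, and they also count among the lower members by unadjusted p and by overlap. At an unadjusted p under 0.05, 24 members differed, against 28.5%, with 16 higher (12.8%) and 8 lower (15.7%). Scaled by library totals alone, 8 were higher (4.32%) and 10 lower (26.5%), with a median of 0.017 over members and -0.323 over all genes. The groups did not overlap for 25, against 48.8%, with 18 higher (23.2%) and 7 lower (25.7%), and the median was 0.29 over members and 0.0041 over all genes.

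Ugt3a1, of a family whose members can use sugars other than glucuronic acid, read 6.20, 6.34 and 17.6 in LFG and 12.8, 12.6 and 13.8 in hADMSCs-Exo, with LFG 3 above the treated libraries. Without LFG 3 it rose by 1.07 ± 0.16 on the log2 scale (adjusted p = 0.0226), and with all libraries the log2 fold change was 0.38 ± 0.41 (0.911). The neighbouring Ugt3a2 read 49.3, 85.2 and 118 and 112, 106 and 103, with log2 fold changes of 0.68 ± 0.27 without LFG 3 (adjusted p = 0.148) and 0.34 ± 0.33 with it (0.9). The others called were Sult2a7 and 3 Sult2a genes that fell.

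The Sult2a genes encode sulfotransferases for hydroxysteroids and bile acids and lie on chromosome 7, in a group of Sult2a5, Sult2a2 and Sult2a1 from 13623967 to 13837409 and another of Sult2a8 and Sult2a7 from 14410686 to 14494230. The first group split the libraries, but not by treatment. Sult2a2 had 867, 687 and 0 reads in LFG 1, 2 and 3, 436, 1 and 4 in REG and 3, 2 and 5 in hADMSCs-Exo. Sult2a5 had 246, 335 and 0, 204, 0 and 0 and 14, 0 and 0, and Sult2a1 had 64, 83 and 0, 38, 0 and 0 and 1, 0 and 0, in the same order. All 3 were high in LFG 1, LFG 2 and REG 1 and at or near 0 in LFG 3, REG 2, REG 3 and the treated libraries, apart from 14 reads of Sult2a5 in hADMSCs-Exo 1.

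Against LFG without LFG 3, all 3 fell in hADMSCs-Exo. They passed the filter on low counts there only through LFG 1 and LFG 2, where they are high, so a difference was set by the filter, and the calls are given as a description. They had adjusted p of 0.000301 for Sult2a2, 0.015 for Sult2a1 and 0.0259 for Sult2a5. The fitted log2 fold change of Sult2a2 was -7.47 ± 0.30, and no fold is given for the other two, whose treated libraries mostly held no reads. With the replicate number as a block in the same 5 libraries, Sult2a1 and Sult2a2 were still called and Sult2a5 was not (adjusted p = 0.0559). That fit has 1 residual degree of freedom among the samples and pairs libraries by number alone. With LFG 3, Sult2a5 had an adjusted p of 0.805, and Sult2a1 and Sult2a2 did not pass the filter on low counts. Between REG and LFG none of the 3 was called with or without LFG 3, REG 1 being on the side of LFG 1 and LFG 2.

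Sult2a8, a bile acid sulfotransferase and the most abundant of the Sult2a genes, was arranged the other way. It read 3.54, 31.1 and 400.3 normalised FPKM in LFG, 57.8, 175 and 137 in REG and 51.6, 155 and 140.0 in hADMSCs-Exo. LFG 1 and LFG 2 were lowest and LFG 3 highest of all, and library 1 was the lowest of each recovery group. Against LFG its log2 fold change was -0.32 ± 1.37 for hADMSCs-Exo and -0.24 ± 1.37 for REG. Without LFG 3 the values were 2.76 ± 0.90 and 2.88 ± 0.89 (adjusted p = 0.103 and 0.0599), and with the replicate block the value for hADMSCs-Exo was 3.08 ± 0.42 (0.0365). As above, the block fit has 1 residual degree of freedom and pairs libraries by number alone, so its adjusted p is weak ground for a difference. Sult2a1, Sult2a2 and Sult2a5 together made 94.5%, 69.9% and 0% of the summed level of the 5 Sult2a members in LFG, 45.1%, 0.0413% and 0.206% in REG and 1.95%, 0.10% and 0.278% in hADMSCs-Exo.

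**Figure D5:**
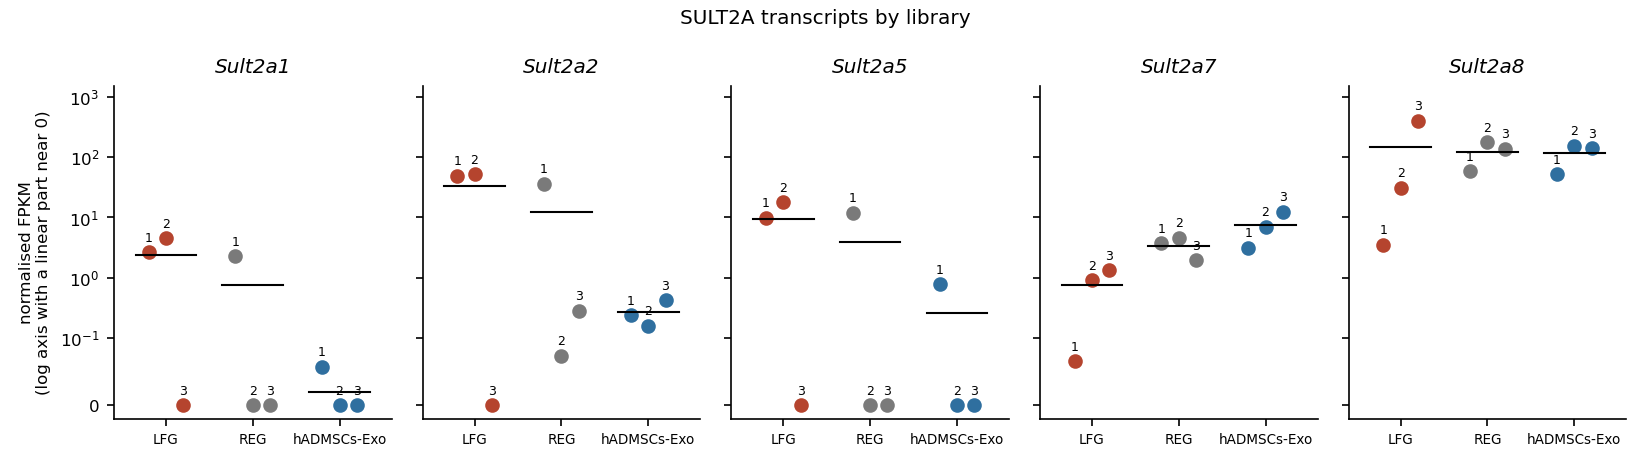
Normalised FPKM of the 5 Sult2a members in each library, numbered by replicate, on a shared axis that is logarithmic apart from a linear part near 0. Bars mark group means. Sult2a1, Sult2a2 and Sult2a5 are high in LFG 1, LFG 2 and REG 1, while Sult2a8 is lowest in LFG 1 and highest in LFG 3.

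Lists of other genes known to differ between the sexes followed this split only in part. Female-predominant genes (23 of 23 measured) summed to 250.0, 324 and 180.1 normalised FPKM in LFG, 734, 309.8 and 185 in REG and 316, 219 and 206 in hADMSCs-Exo. REG 1 was the highest, but REG 2 and hADMSCs-Exo 1 lay above LFG 1, so the sum did not set LFG 1, LFG 2 and REG 1 apart. Of the genes in that list that were called, Cyp2a4, a steroid hydroxylase, read 26.7, 36.9 and 1.03 normalised FPKM in LFG, 74.5, 2.12 and 9.40 in REG and 8.58, 6.59 and 4.31 in hADMSCs-Exo. Its high libraries were LFG 1, LFG 2 and REG 1. Without LFG 3, Prom1 and Cyp2a4 fell and Acot3 and Acot4 rose in hADMSCs-Exo against LFG, while in REG the only calls among the 20 tested were rises of Acot3 and Acot4, and 13 of the 20 had a positive log2 fold change. Male-predominant genes (17 of 17 measured) summed to 1992, 2165 and 33381 in LFG, 5377, 8767 and 6501 in REG and 8842, 6354 and 8859.5 in hADMSCs-Exo. The lowest of these sums were in LFG 1, LFG 2 and REG 1, where Sult2a1, Sult2a2 and Sult2a5 were high. Without LFG 3, 8 of 17 rose in hADMSCs-Exo against LFG, beside 1.47% of all genes, such as Elovl3, a fatty acid elongase, and Mup3, a major urinary protein, and 2 of 16, Mup3 and Hsd3b5, rose in REG, beside 3.81%. With LFG 3 none of either list was called in any comparison. The 4 Y-linked genes measured (Ddx3y, Eif2s3y, Kdm5d and Uty, chosen after the data had been seen) summed to 22.5 to 32.9 in LFG, 19.3 to 26.0 in REG and 22.2 to 26.6 in hADMSCs-Exo, so that every library carried them at a like level.

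Further members varied widely within groups. Sult3a1, which sulfates amines, had 19, 48 and 0 reads in LFG, 240, 23 and 30 in REG and 73, 14 and 7 in hADMSCs-Exo, highest in REG 1. Its log2 fold change in REG against LFG was 2.33 ± 1.37, and 0.32 without REG 1. Sult1e1, the estrogen sulfotransferase, read 5.80, 2.02 and 1.01 normalised FPKM in LFG, 0.298, 0.663 and 2.31 in REG and 0.191, 1.75 and 1.27 in hADMSCs-Exo. LFG 1 was the highest library, and log2 fold changes of -1.43 ± 0.90 for REG and -1.49 ± 0.91 for hADMSCs-Exo against LFG did not pass (adjusted p = 0.575 and 0.833). Without LFG 1 they were -0.47 and -0.52. Ugt2b1, an abundant steroid-type UGT, read 27.3, 81.1 and 236 in LFG, 55.1, 153 and 135 in REG and 71.6, 172 and 118 in hADMSCs-Exo, with library 1 the lowest of each group. Sult5a1 read 0.791, 1.80 and 10.4 in LFG, and its log2 fold change in REG against LFG was -1.58 ± 0.89 with LFG 3 and 0.21 without it. Sult1b1, which acts on phenols and thyroid hormone, read 4.01, 7.26 and 12.9 in LFG, 8.04, 13.0 and 15.8 in REG and 6.88, 13.8 and 12.5 in hADMSCs-Exo, with overlap between all groups.

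The remaining members are given by their levels. Gsta2 read 14.4, 78.8 and 26.3 normalised FPKM in LFG, 51.8, 53.0 and 25.2 in REG and 102, 21.3 and 36.8 in hADMSCs-Exo, with overlap between all groups. Gstt3 lay between 4.67 and 9.74 in all libraries and differed by -0.52 ± 0.29 between hADMSCs-Exo and REG on the log2 scale. In the Ugt1a locus, Ugt1a6a and Ugt1a6b, which conjugate phenols, lay between 1.49 and 10.2, and Ugt1a9 read 6.35, 30.9 and 2.57 in LFG, 21.7, 18.6 and 17.6 in REG and 13.0, 30.2 and 21.0 in hADMSCs-Exo, lowest in LFG 1 and LFG 3. Ugt2b38, which shares 24.2% of its stretches with other genes, read 1.47, 3.28 and 14.0, 0.814, 4.82 and 2.89 and 2.35, 5.07 and 2.76, highest in LFG 3. None of these was called in any comparison, with or without LFG 3.

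Cell markers also differed between LFG 1, LFG 2 and LFG 3. Stellate cell and myofibroblast markers summed to 222, 165 and 28.9 normalised FPKM in these libraries, macrophage markers (11 of 11) to 883, 697 and 74.0, cholangiocyte markers (8 of 8) to 113, 84.9 and 27.8, cell cycle genes (8 of 8) to 69.0, 17.5 and 4.40 and pericentral hepatocyte markers to 853, 2002 and 8647. The recovery groups lay at 259.7 to 732 (REG) and 494 to 623 (hADMSCs-Exo) for macrophages, at 37.8 to 41.7 and 29.9 to 75.5 for cholangiocytes, and at 4.55 to 7.47 and 4.17 to 5.70 for the cell cycle. Periportal markers (11 of 11) ranged over 2098 to 4271 in LFG, 3586 to 4450.5 in REG and 3272 to 4301 in hADMSCs-Exo. Lymphocyte markers (9 of 10) summed to 1.82 to 8.61, 5.51 to 12.1 and 11.6 to 12.6, neutrophil markers (8 of 8) to 13.8 to 24.5, 12.7 to 87.7 and 46.4 to 86.8, sinusoidal endothelial markers (10 of 10) to 18.1 to 44.9, 27.9 to 77.2 and 17.8 to 56.9, and red cell genes (6 of 6) to 66.2 to 259.5, 179 to 1099 and 119 to 618, in that order of groups. Without LFG 3, 7 stellate markers fell in hADMSCs-Exo and 4 in REG against LFG, and 8 and 7 of 8 cell cycle genes fell, beside 4.50% of all genes in hADMSCs-Exo and 6.94% in REG. The pericentral Slc1a2, Cyp2e1, Glul and Oat and the periportal Hal and Gls2 rose in both, beside 1.47% and 3.81% of all genes. Of the other lists, the cholangiocyte markers Krt7, Spp1 and Epcam and the macrophage markers Trem2 and Ccr2 fell and Fgb and the red cell gene Alas2 rose in REG, while Epcam, Adgre1 and Trem2 fell and Serpina1c and the neutrophil genes Ngp, S100a8 and S100a9 rose in hADMSCs-Exo. No marker measured was at 0 in every library. The part of these cells, and of LFG 3, in the values of the transferases was not tested.

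Genes that serve the 3 families were read in the same fits. With all libraries, the only call among them in any comparison was Cyp2c55, a CAR and PXR target, which read 10.9, 11.7 and 10.7 normalised FPKM in REG and 1.87, 1.24 and 1.45 in hADMSCs-Exo and fell, with a log2 fold change of -2.87 ± 0.19 (adjusted p = 0.00401). The calls that follow are without LFG 3, where 3.81% of all genes rose and 6.94% fell in REG, and 1.47% rose and 4.50% fell in hADMSCs-Exo. Among 16 tested genes of glutathione supply and GST partners, only Gclc, the catalytic subunit of the first step of glutathione synthesis, was called. It read 67.4, 91.3 and 62.7 in LFG, 30.6, 32.4 and 31.9 in REG and 66.9, 53.7 and 34.9 in hADMSCs-Exo, and fell in REG against LFG, with a log2 fold change of -1.28 ± 0.19 (adjusted p = 0.0152). None of 9 genes of UDP-glucuronic acid supply was called. Of 12 genes of sulfate donor supply, Suox, the sulfite oxidase, rose in REG with a log2 fold change of 1.39 ± 0.38, and Papss1, a PAPS synthase, fell in hADMSCs-Exo with -1.07 ± 0.23 (adjusted p = 0.0472 and 0.0399).

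Among other conjugating enzymes, the methyltransferases Inmt and Gamt, the acetyltransferases Nat1 and Nat2, the acyl-CoA synthetase Acsm1 and the epoxide hydrolase Ephx2 rose in REG against LFG, and the quinone reductase Nqo1 fell. In hADMSCs-Exo against LFG only Ephx2 was called, of 22 tested, a rise of 1.37 ± 0.32 (adjusted p = 0.0498). Of 22 NRF2 targets outside the families, 7 fell in REG (Nqo1, Hmox1, Cbr3, Slc7a11, Gclc, Srxn1 and Abcc4), beside 6.94% of all genes, with Nqo1 at -1.45 ± 0.32 (adjusted p = 0.0291), and none was called in hADMSCs-Exo. Of 13 genes of conjugate export, the bile acid and anion importers Slc10a1 and Slco2b1 rose and Abcc1, Abcc4 and Abcc5 fell in REG, and Abcc5 fell in hADMSCs-Exo. Among regulators, Cebpa and Nr1h4 rose and Ahr fell in REG (21 tested), while Nr1i3 (CAR) and Nr1h4 (FXR) rose in hADMSCs-Exo (20 tested). Of 24 targets of CAR, PXR and the aryl hydrocarbon receptor, Cyp3a25 and Ces2a rose and Cyp2b10 fell in REG, and Cyp2c55 and Akr1b7 fell in hADMSCs-Exo. Both comparisons share the LFG libraries, and whether REG and hADMSCs-Exo differ in these genes was tested in their direct comparison, where Cyp2c55 was the sole call.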

How the data were processed

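The authors extracted liver RNA with Trizol and built libraries with an NEBNext Ultra kit. They deposited raw counts per gene, without normalization, and FPKM, which could be recomputed from the counts, gene lengths and totals to within 9.19e-07 of its value. The submitters' processing notes name cutadapt 1.15, HISAT2 2.0.5, HTSeq 0.9.1, DESeq 1.30.0 and GRCm38, with no role or order. Nothing in the labels says whether the 3 libraries of a group came from separate animals, so p-values measure only the spread between these samples.

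The two-sided quasi-likelihood test of edgeR 4.0.16 (R 4.3.3) was run on the 6 libraries of each comparison with TMM factors after edgeR removed genes of low counts, and p-values were adjusted over the whole table by the Benjamini-Hochberg method. Calls needed an adjusted p under 0.05 together with a log2 fold change of at least 1 in either direction. Standard errors were computed as the fold change over the root of F. The test was tested on simulated data. Alternatives used DESeq2 1.42.0, limma 3.58.1 with voom, RLE or library totals, other filters, all 9 libraries in 1 fit, the replicate number as a block, and each library left out. Fits that combined leaving out LFG 3 with DESeq2, RLE, library totals or the replicate block were added after the data were seen. Deviations of same-numbered libraries of hADMSCs-Exo and LFG from their group means correlated at r of 0.101, 0.308 and 0.179 across genes. Libraries with different numbers were not compared, so these values cannot show a pairing, and the shared number is its only ground. Between hADMSCs-Exo and REG, r was 0.157, 0.00642 and 0.0373, and between REG and LFG it was 0.414, -0.200 and 0.306.

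Members, gene lists (from general knowledge) and named genes were chosen with earlier results of these data known. Named members were those called with or without LFG 3, up to 6 per direction with the smallest p in each comparison, and the most abundant of each subfamily. Other members are described by their levels. Results of 2 genes of the other lists are not reported here. Shared sequence was counted over exons of GENCODE M21, in which all 49 members had the same start and end, and promoters were taken from RefSeq (GRCm38.p6). The errors given combine counting error and the spread between libraries, and no interval for counting error alone is given.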

Additional observations from a re-analysis of the deposited data

How the results depend on the processing

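The number of members called depended on LFG 3 and on the tool. Percentages in parentheses are the share of all genes called in the same fit. For hADMSCs-Exo against REG it was 0 with edgeR, 2 with DESeq2 and 3 with an unadjusted p and the limit on fold change (2.16%), and 0 with each library left out. For hADMSCs-Exo against LFG it was 0 with edgeR, 1 with DESeq2, 3 with an unadjusted p (2.99%), and 0 to 5 with each library left out (5 without LFG 3). Without LFG 3 it was 7 with DESeq2 (8.10%), 8 with library totals alone (10.8%; 2 higher and 6 lower, from 2 and 3) and 5 with RLE size factors (5.94%). For REG against LFG it was 0 with edgeR, 2 with DESeq2, 4 with an unadjusted p (4.29%), and 0 to 8 with each library left out (8 without LFG 3, and 11 with no limit on fold change, where 16.8% of all genes were). Without LFG 3 it was 14 with DESeq2 (10.9%), 9 with library totals alone (18.8%; 4 higher and 5 lower, from 5 and 3) and 8 with RLE size factors (10.5%). The cause was not tested. With the replicate block the count was 0 in each comparison with 6 libraries. With the block and without LFG 3, a fit with 1 residual degree of freedom among the samples, it was 6 for hADMSCs-Exo against LFG (3.05%), where Sult2a5 was lost and Gstm3 and Sult2a8 were added, and 16 for REG against LFG (12.8%), whose libraries share only a number. The median log2 fold change of members was then 0.47 and 0.57.

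The median log2 fold change of members in hADMSCs-Exo against REG, 0.025, ranged from -0.081 (without hADMSCs-Exo 2) to 0.037 with each library left out. Of 683 values of named members under alternatives, 609 kept direction and call, 68 were newly called and 6 reversed. The reversed were Gstm3 in hADMSCs-Exo against LFG (from -1.59 without LFG 3 to 0.016 without LFG 2), Ugt1a6b in the same comparison (-0.16 with library totals alone and without LFG 3), and Sult5a1 in REG against LFG, from -2.08 without LFG 1 to 0.21 without LFG 3, at 0.21 with DESeq2 without it at 0.21 with RLE without it and at 0.40 with the block without it. Library totals alone moved the median of all genes from -0.068 to -0.272 in REG against LFG and from -0.059 to -0.179 in hADMSCs-Exo against LFG, and without LFG 3 to -0.425 and -0.323, and the median of members from 0.34 to -0.064 and from 0.29 to 0.017, so directions of small changes against LFG are relative to that shift. Sult2a1 and Sult2a2 have no value with all 6 libraries of hADMSCs-Exo and LFG. Members with an unadjusted p under 0.05 in hADMSCs-Exo against LFG, 2 higher and 4 lower, were 1 and 4 with library totals alone. With 3 libraries a group, no test for outlying libraries was made.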
